A study of Sus scrofa with 15 samples.

Results

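Muscle loses protein through a pair of degradation routes that FOXO transcription factors can switch on together, and the genes described here sit on those routes: the ubiquitin ligases FBXO32 (atrogin-1), TRIM63 (MuRF1), NEDD4 and TRIM13, the factors FOXO1 and FOXO3, and the autophagy protein BECN1 (beclin 1). They were followed in the Longissimus, the long muscle of the back, of 15 pigs at 20 kg body weight. These 7 genes were listed by name. A probe was used when the array's gene name or description gave a listed gene and the scanner flagged its signal as well above background on 7 arrays or more. Of the 43603 non-control probes, 15 named a listed gene (10 by symbol, 5 by description only) and 14 passed, which covered 6 of the 7 genes. TRIM63 was not analysed here, as no probe was named for it. The probe that did not pass was described as beclin 1-like and was well above background on 1 of the 15 arrays.

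The pigs belonged to a pair of lines bred for low or for high residual feed intake (RFI), the feed eaten beyond what growth and maintenance are predicted to need. The low_RFI line (strain RFIneg, the more efficient one) had 7 pigs and the high_RFI line (strain RFIpl) had 8, all fed ad libitum. Total RNA from each pig was labelled with Cy3 and hybridised to its own 1-colour Agilent array. Signals were scaled to each array's 75th percentile and put on a log2 scale, called the level, so a difference of 1 is a doubling, and levels of different probes are not compared with each other. Array names number the pigs in 2 runs, 1 to 8 (4 low_RFI and 4 high_RFI pigs) and 55 to 62 (3 low_RFI and 4 high_RFI pigs), called the first and the second run below; what the runs stand for is not stated.

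Ubiquitin ligases mark proteins for the proteasome. FBXO32 is the substrate-binding part of a ligase complex and is a standard marker of muscle wasting; TRIM63 attacks proteins of the thick filament; NEDD4 is a HECT-type ligase of membrane receptors and channels; and TRIM13 is a ligase anchored in the endoplasmic reticulum. FOXO factors are held out of the nucleus when insulin or IGF1 signals through AKT, and in fasting or disuse they enter it and drive FBXO32, TRIM63 and autophagy genes. BECN1 belongs to the lipid kinase complex that starts the autophagosome, the vesicle that carries cell contents to the lysosome.

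Each probe is a 60-base stretch of a transcript. The probes below are shown because the values of a gene rest on what its probe reads, and where a gene has several probes they read different stretches. The printed probes are given 5′ to 3′ as the array files list them, each with at least 1 forward frame free of stop codons. No base is capitalised because no site within them was examined.
FBXO32 A_72_P110111: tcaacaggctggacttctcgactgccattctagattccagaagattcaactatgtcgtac
FBXO32 A_72_P602453: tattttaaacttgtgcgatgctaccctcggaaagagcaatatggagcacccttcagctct
TRIM13 A_72_P154716: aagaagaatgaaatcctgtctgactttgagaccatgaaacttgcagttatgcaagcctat
NEDD4 A_72_P492675: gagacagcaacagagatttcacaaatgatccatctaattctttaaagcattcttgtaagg
FOXO1 A_72_P441344: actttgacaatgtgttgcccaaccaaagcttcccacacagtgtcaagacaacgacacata
FOXO3 A_72_P440351: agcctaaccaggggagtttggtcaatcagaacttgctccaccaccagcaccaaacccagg
Among all 91 pairs of the 14 probes the longest run of identical bases was 9, so the FOXO1 and FOXO3 probes, and the probes of 1 gene, share no long stretch. The array files used here name no genome build, and positions are not given.

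The muscle label was checked on 12 fibre genes. Of these, 11 were measured, each well above background on all 15 arrays (TTN had no probe named for it), and their summed level ran from 12.7 to 13.0 in low_RFI and from 12.7 to 13.1 in high_RFI. Per array, 61.7% to 79.5% of probes exceeded background. In bulk tissue fewer cells of a type and less RNA per cell cannot be told apart.

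The first question was whether the lines differed in these genes. None of the 6 measured genes passed limma at an adjusted p under 0.05; 1 of 4655 genes did, or 0.0215%. At an unadjusted p under 0.05 stood TRIM13, NEDD4 and BECN1, 3 of the 6, where 7.15% of all genes did (4.12% higher in low_RFI, as TRIM13 and NEDD4 were, and 3.03% higher in high_RFI, as BECN1 was). These 3 already appeared in earlier results of these data that were known when the genes were listed. Neither their count nor that of their probes below is therefore independent support. In the means, 3 genes were higher in low_RFI (TRIM13, NEDD4, FOXO1) and 3 in high_RFI (FBXO32, FOXO3, BECN1). The lines overlapped in all 6, and 0.15% of all genes had lines that did not overlap. The median of their log2 differences, low_RFI minus high_RFI, was 0.027, beside 0.014 over all genes. Over probes, 0 of the 14 were called, where 0% of 31984 were, and 3 stood at an unadjusted p under 0.05, where 6.64% of all probes did.

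**Figure D1:**
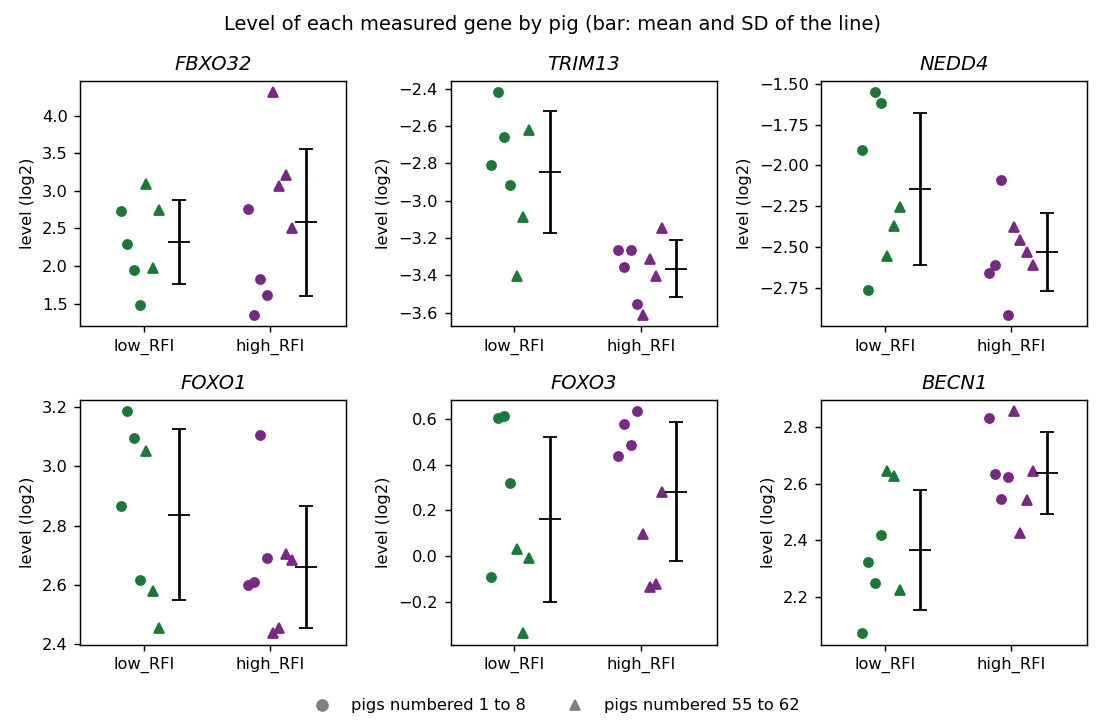
Level (log2 of signal relative to the array's 75th percentile) of the 6 measured genes in each pig, with low_RFI in green, high_RFI in purple, circles for pigs numbered 1 to 8 and triangles for pigs numbered 55 to 62; bars give the mean and SD of a line (n = 7 and n = 8). The lines overlap in all 6 genes, least in TRIM13 and most visibly in FBXO32, whose highest pig stands at 4.31.

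Among the ligases, TRIM13 had the smallest p. Its level in low_RFI ran from -3.41 to -2.42 with a median of -2.81, and in high_RFI from -3.61 to -3.15 with a median of -3.34. Most low_RFI pigs lay above the high_RFI line, with the low_RFI pig higher in 50 of the 56 pairs of 1 pig from each line. The means were -2.85 ± 0.33 (SD, n = 7) and -3.36 ± 0.16 (SD, n = 8). The log2 difference was 0.52 ± 0.13 (SE), 1.43-fold higher in low_RFI, with a 95% interval of 0.25 to 0.79 (limma p = 0.000968, adjusted p = 0.265; exact two-sided permutation p = 0.00218 over 6435 splits, where the smallest possible is 0.000155). Each of the 4 slides gave the same direction (0.53, 0.68, 0.44 and 0.44), as did the first run (0.66) and the second (0.33). A slide held 2 pigs of each line, except slide 2 with 1 low_RFI and 2 high_RFI pigs. These values are parts of the same difference and no independent support for it. TRIM13 had 1 probe, and its processed signal was low, at 30.9 to 73.4; with normexp background correction the difference was 0.11 (limma adjusted p = 0.891).

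NEDD4, read by the probe named by its symbol, ran from -2.77 to -1.55 with a median of -2.26 in low_RFI, and from -2.92 to -2.09 with a median of -2.57 in high_RFI. The lines overlapped over most of their range, and the low_RFI pig was higher in 43 of 56 pairs. The means were -2.15 ± 0.47 (SD, n = 7) and -2.53 ± 0.24 (SD, n = 8), a log2 difference of 0.39 ± 0.18 (SE) or 1.31-fold (limma p = 0.0458, adjusted p = 0.695; exact two-sided permutation p = 0.0631). The difference was 0.61 within the first run and 0.10 within the second. On the slides it was -0.010, 0.59, 0.67 and 0.41, so the direction was not shared by all of them. Spread over pigs also differed between the runs as a description, with an SD of 0.54 in the first (n = 8) and 0.12 in the second (n = 7). The 3 highest levels were those of low_RFI pigs of the first run, while the low_RFI pig at -2.77 was of that run too. A further probe, which only its description assigns to NEDD4, gave -0.047 ± 0.11 (SE), and over the 15 pigs the 2 probes correlated at 0.13. With normexp the symbol-named probe gave 0.11. Its signal was 48.1 to 121, and that of the probe assigned by description was 338 to 622.

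FBXO32 varied more between pigs than most genes. Its level ran from 1.48 to 3.09 with a median of 2.29 in low_RFI, and from 1.35 to 4.31 with a median of 2.63 in high_RFI. The high_RFI line thus held both the lowest and the highest pig, which were 7.81-fold apart. The SD over all 15 pigs was 0.79, above that of 95.1% of the genes tested, whose median was 0.26. All 3 FBXO32 probes ordered the pigs alike, with pairwise correlations of 0.99, 0.96 and 0.99 (Pearson) over the 15 pigs. Between lines the means were 2.32 ± 0.56 (SD, n = 7) and 2.58 ± 0.98 (SD, n = 8). The log2 difference was -0.26 ± 0.39 (SE), with a 95% interval of -1.08 to 0.56 (limma adjusted p = 0.982; exact two-sided permutation p = 0.557). The other probes gave -0.44 and -0.17. Without high_RFI replicate 5, the pig at 4.31, the difference was -0.010.

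**Figure D2:**
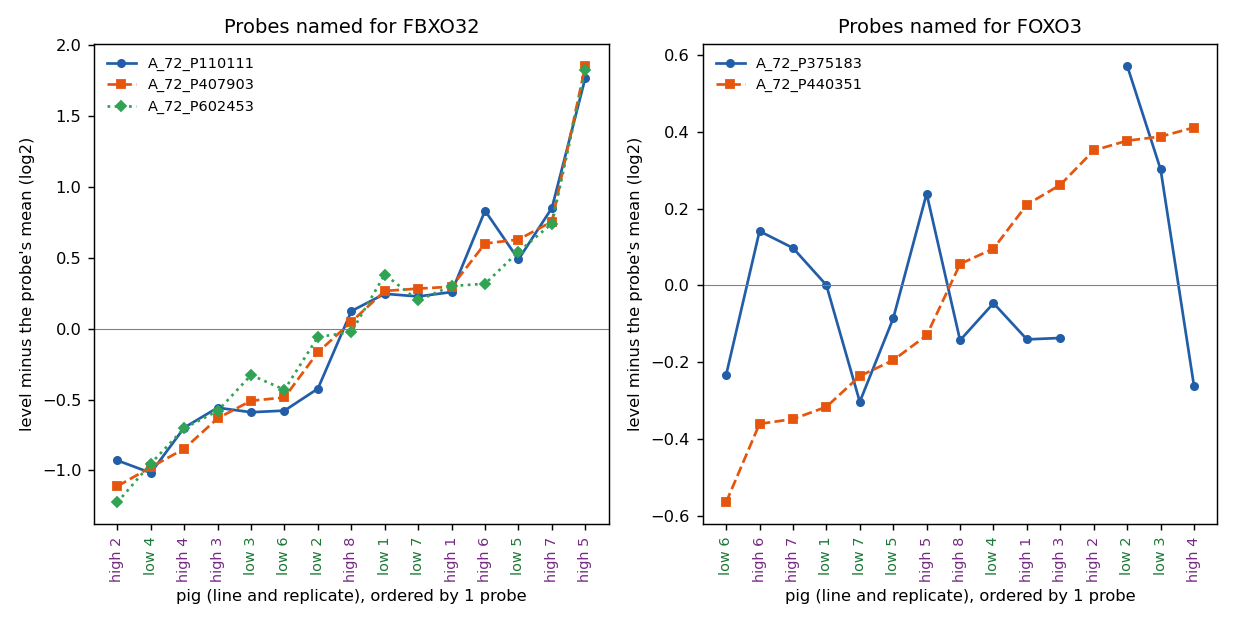
Level of each probe minus that probe's own mean (log2) in the 15 pigs, for the 3 probes named for FBXO32 (left) and the 2 named for FOXO3 (right); pigs are ordered by the probe that represents the gene, with low_RFI names in green and high_RFI names in purple. The FBXO32 probes trace 1 profile (correlations of 0.96 to 0.99) and the FOXO3 probes do not (0.24 over 14 pigs).

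The transcription factors were FOXO1 and FOXO3. FOXO1 ran from 2.45 to 3.19 with a median of 2.87 in low_RFI, and from 2.44 to 3.104 with a median of 2.65 in high_RFI. The ranges nearly coincided, and the low_RFI pig was higher in 36 of 56 pairs. The means were 2.84 ± 0.29 (SD, n = 7) and 2.66 ± 0.21 (SD, n = 8), a log2 difference of 0.18 ± 0.13 (SE), with a 95% interval of -0.094 to 0.45 (limma adjusted p = 0.875; exact two-sided permutation p = 0.191). The other 2 probes named by symbol gave 0.21 and 0.23, and the one named only in its description gave 0.055. Probes named by symbol correlated with each other at 0.54 to 0.93, and the described one with them at 0.35 to 0.45.

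FOXO3 ran from -0.34 to 0.61 with a median of 0.032 in low_RFI, and from -0.13 to 0.64 with a median of 0.36 in high_RFI. Pigs of both lines stood at the top and near the bottom. The means were 0.16 ± 0.36 (SD, n = 7) and 0.28 ± 0.30 (SD, n = 8), a log2 difference of -0.12 ± 0.16 (SE), with a 95% interval of -0.47 to 0.23 (limma adjusted p = 0.971; exact two-sided permutation p = 0.484). Without 1 pig it ranged from -0.20 (without low_RFI replicate 3) to -0.038 (without low_RFI replicate 6). The probe assigned to FOXO3 by its description gave 0.059, in 14 pigs because 1 spot was left out as non-uniform. Its signal was 3232.5 to 6592.5, and that of the symbol-named probe was 310 to 596.

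BECN1 had the smallest p of the genes with a higher mean in high_RFI. It ran from 2.07 to 2.64 with a median of 2.32 in low_RFI, and from 2.43 to 2.86 with a median of 2.63 in high_RFI. The high_RFI pig was higher in 47 of 56 pairs, and the overlap came from the low_RFI pigs at 2.63 and 2.64. The means were 2.37 ± 0.21 (SD, n = 7) and 2.64 ± 0.15 (SD, n = 8). The log2 difference was -0.27 ± 0.098 (SE), 1.21-fold higher in high_RFI, with a 95% interval of -0.48 to -0.064 (limma p = 0.0138, adjusted p = 0.563; exact two-sided permutation p = 0.0113). All 4 slides gave the same direction (-0.15, -0.67, -0.13 and -0.27), and the runs gave -0.39 and -0.12. The value of -0.67 rests on 1 low_RFI pig, the lowest at 2.07. As for TRIM13, these are parts of the same difference and no independent support for it. A probe named only in its description, well above background on 14 arrays, gave -0.35 ± 0.19 (SE, limma p = 0.0842) and correlated with the first at 0.67. Its signal was low, at 19.7 to 69.8, and that of the symbol-named probe was 1658 to 3192.

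**Figure D3:**
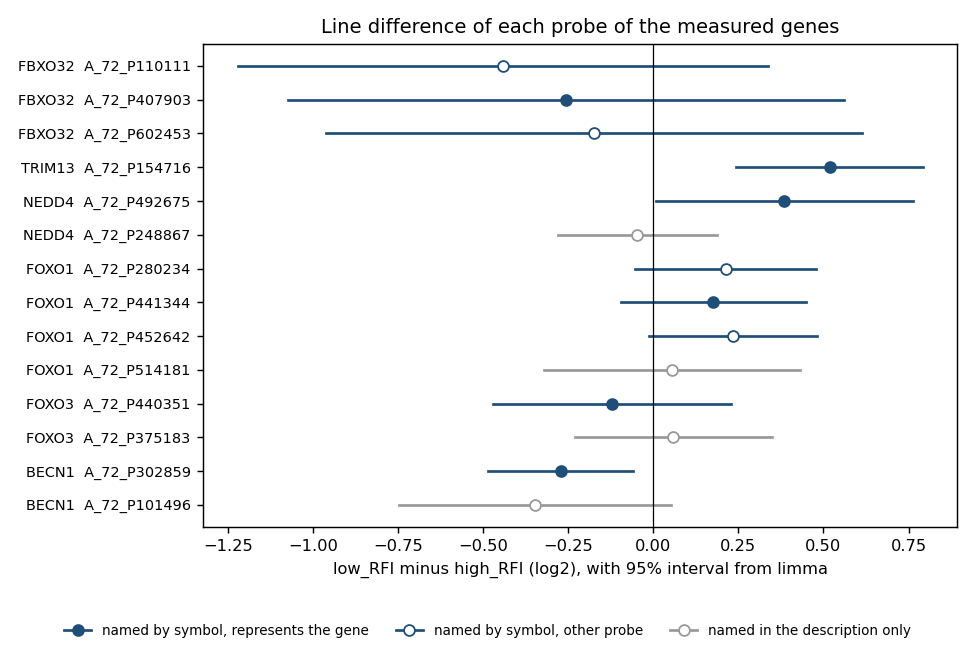
Difference in level, low_RFI minus high_RFI (log2), of each of the 14 probes, with 95% intervals from limma (n = 7 and n = 8, except n = 7 and n = 7 for A_72_P375183); filled points are the probes that represent a gene, open blue points other probes named by symbol, and grey points probes named by description only. The intervals of TRIM13, of 1 NEDD4 probe and of 1 BECN1 probe lie to 1 side of 0, and the 2 NEDD4 probes differ in sign.

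The runs of pig numbers were compared next, with line in the fit, since each run held both lines. FOXO3 was lower in the second run and passed (log2 difference, second minus first, -0.49 ± 0.11 SE, 1.40-fold, limma adjusted p = 0.0296); 3.59% of all genes passed, and 1.4% of all genes passed in this direction. Its level ran from -0.090 to 0.64 with a median of 0.53 in the first run, and from -0.34 to 0.28 with a median of -0.0098 in the second. The second-run pig was the higher one in 4 of 56 pairs. Means were 0.45 ± 0.24 (SD, n = 8) and -0.028 ± 0.20 (SD, n = 7). The call was close to its threshold: it did not hold without any 1 of 8 pigs (low_RFI replicates 2, 3, 4 and 6, and high_RFI replicates 3, 4, 6 and 7), with adjusted p between 0.0114 and 0.0616 over the fits without 1 pig and log2 differences from -0.55 to -0.44. It also ended with normexp (-0.38, limma adjusted p = 0.0932), and the probe assigned by description gave -0.075 ± 0.14 (SE, adjusted p = 0.80 over all probes).

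FBXO32 lay on the other side. Its level ran from 1.35 to 2.76 with a median of 1.89 in the first run, and from 1.98 to 4.31 with a median of 3.06 in the second, so that the second-run pig was higher in 50 of 56 pairs. Means were 2.001 ± 0.542 (SD, n = 8) and 2.987 ± 0.724 (SD, n = 7). The log2 difference of 0.97 ± 0.31 (SE), or 1.96-fold, did not pass (limma adjusted p = 0.0851). Without high_RFI replicate 5 it was 0.77 (limma adjusted p = 0.111). By line, the mean was 2.11 in the first and 2.60 in the second run in low_RFI, and 1.89 and 3.28 in high_RFI. The line difference was thus 0.23 in the first run and -0.67 in the second, and the test of that change of sign did not pass (interaction -0.90 ± 0.59 SE, limma adjusted p = 0.973; 0% of genes passed it and 5.63% stood at an unadjusted p under 0.05). FOXO1 differed by -0.21 between runs (limma adjusted p = 0.309), NEDD4 by -0.16, TRIM13 by -0.16 and BECN1 by 0.085; none of these passed. A FOXO1 probe named only by description did pass over probes (-0.56, limma adjusted p = 0.0228, where 2.28% of probes passed), and the FOXO1 probes named by symbol did not. The signal of the probe that passed was low, at 22.3 to 53.5.

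Markers of other cells were set beside FBXO32. The summed level of leukocyte markers (4 of 8 measured: CD14, CD163, CD3E and CD8A; CD4 and CD79A were well above background on at most 6 and 2 arrays) correlated with it over the 15 pigs at r = 0.65 (permutation p = 0.00949, adjusted p = 0.0433 over 6 marker lists), with rho = 0.48 (permutation adjusted p = 0.176). Adipocyte markers (5 of 6 measured; PLIN1 was well above background on 2 arrays) gave r = 0.62 (permutation adjusted p = 0.0433) and rho = 0.54 (adjusted p = 0.176). Without the 2 pigs farthest from the FBXO32 median (high_RFI replicates 5 and 2) the r values were 0.25 and 0.42. Within the runs they were 0.86 (n = 8) and 0.42 (n = 7) for leukocytes and 0.39 and 0.66 for adipocytes. Of the other 4 lists, the fibroblast and matrix markers (3 of 5 measured) gave r = -0.52 (permutation adjusted p = 0.0943), or -0.57 without those 2 pigs and -0.34 and -0.26 within the runs; endothelium, nerve and muscle fibre gave -0.34, 0.35 and -0.32 (permutation adjusted p = 0.25 each). High_RFI replicate 5 had the highest level of FBXO32 and of both sums (2.92 and 5.67). The leukocyte sum ran from 1.06 to 1.97 with a median of 1.45 in the first run, and from 1.252 to 2.92 with a median of 1.79 in the second; the adipocyte sum ran from 4.58 to 5.63 and from 4.72 to 5.67. By gene, FBXO32 correlated at 0.73 with CD163, 0.34 with CD14, 0.26 with CD3E and 0.23 with CD8A. Their mean levels in low_RFI were 1.03, -0.48, -3.19 and -3.54, so the leukocyte sum was weighted to CD163. Single adipocyte genes gave -0.065 (LEP) to 0.54 (LIPE). The part of any of these cell types in the FBXO32 levels was not tested. No erythrocyte marker was measured.

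How the genes varied with each other was examined over the 15 pairs of genes. TRIM13 and BECN1 ran in opposite directions, with r = -0.78 over 15 pigs (permutation p = 0.00059, adjusted p = 0.00885) and rho = -0.69 (permutation adjusted p = 0.0834). The line means of the 2 genes differ in opposite directions, and both genes already appeared in earlier results known when they were listed. The permutations moved pigs freely between lines. The p therefore also reflects those line differences and is no independent support. With line means removed r was -0.60, for which no p is given, and within low_RFI and high_RFI it was -0.73 (n = 7) and -0.30 (n = 8). Within the runs r was -0.75 (n = 8) and -0.79 (n = 7), and without low_RFI replicates 2 and 7, farthest from the TRIM13 median, it was -0.76.

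**Figure D4:**
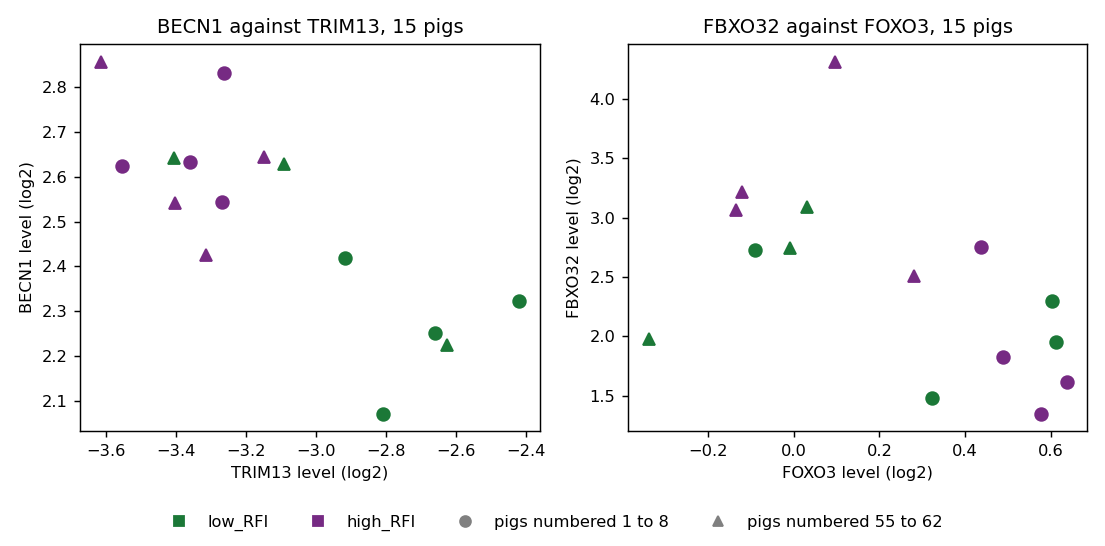
BECN1 level against TRIM13 level (left) and FBXO32 level against FOXO3 level (right), both log2, 1 point per pig (n = 15), with low_RFI in green, high_RFI in purple, circles for pigs numbered 1 to 8 and triangles for 55 to 62. On the left r is -0.78. On the right r is -0.53, with FOXO3 read by its symbol-named probe only, and the circles and triangles fall in different parts of the plot.

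The other 14 pairs did not pass (smallest permutation adjusted p = 0.209 for r). FBXO32 against FOXO3, the factor known to drive it, gave r = -0.53 (permutation adjusted p = 0.209) and rho = -0.59 (adjusted p = 0.179). Within the runs r was -0.50 in the first (n = 8) and 0.36 in the second (n = 7), and it was -0.086 with run means removed. These values rest on the symbol-named FOXO3 probe. The brighter probe assigned to FOXO3 by description correlated with that probe at only 0.24 over 14 pigs. Whether it runs with or against FBXO32 was not tested. FBXO32 against FOXO1 gave r = -0.27 (permutation adjusted p = 0.568), or 0.034 with run means removed.

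Genes known to be induced by FOXO factors were then set against FBXO32, FOXO1 and FOXO3; 12 of the 20 listed were measured, which made 36 relations. For FBXO32, 8 of 12 were positive and none passed. No share over all genes is given beside this count or the relations that passed below, so they are a description only. The cell cycle inhibitor CDKN1A (r = 0.55) and the stress gene GADD45A (0.53) were its highest, both at a permutation adjusted p of 0.211. PDK4, which restrains glucose oxidation, gave 0.40 and TXNIP, an inhibitor of thioredoxin, 0.42. With run means removed, r was 0.49 for CDKN1A, 0.26 for GADD45A, 0.58 for PDK4 and 0.098 for TXNIP. FOXO1 went with CDKN1B, the cell cycle inhibitor p27 (r = 0.81, permutation adjusted p = 0.00828; rho = 0.86, adjusted p = 0.00432), and the r was 0.87 and 0.59 within the runs and 0.66 without the 2 pigs farthest from the FOXO1 median. FOXO3 ran against CITED2, a transcriptional co-regulator (r = -0.75, permutation adjusted p = 0.0279; rho = -0.78, adjusted p = 0.0198), with -0.87 and -0.33 within the runs and -0.78 without the 2 farthest pigs. All FOXO3 relations here were read by its symbol-named probe only. The median r was 0.19 for FBXO32, -0.050 for FOXO1 and -0.13 for FOXO3.

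Between lines, the 12 induced genes had a median log2 difference of -0.10, with 4 higher in low_RFI and 8 higher in high_RFI. None passed; EIF4EBP1, a repressor of translation, had the smallest p (-0.26 ± 0.14 SE, limma adjusted p = 0.753). In all, 169 genes of the surrounding pathways were listed and 77 measured, of which 36 were higher in low_RFI and 41 in high_RFI, with a median of -0.0077. Over all genes, 54.65% were higher in low_RFI. None of the 77 passed, and 6 stood at an unadjusted p under 0.05, a share near the 7.15% of all genes.

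Of 15 FOXO family members and regulators measured, 3 of those 6 were found. YWHAZ, a 14-3-3 protein of the kind that holds FOXO in the cytoplasm, gave 0.29 ± 0.090 (SE, 1.23-fold higher in low_RFI, limma adjusted p = 0.46). The stress kinase MAPK8 gave 0.22 (0.026 with normexp), and PPARGC1A, the co-activator of mitochondrial genes, -0.40 ± 0.18 (SE); AKT1, which phosphorylates FOXO factors, gave -0.019 ± 0.096 (SE). Of 8 other muscle ligases, 4 were higher in each line, with a median of 0.0086. TRAF6, a ligase that acts on ULK1 and BECN1 and so stands in 2 lists, gave 0.69 ± 0.28 (SE, 1.61-fold, limma adjusted p = 0.64), and FBXO9 gave -0.22 ± 0.085 (SE, adjusted p = 0.626). Among 13 measured substrates and partners of the ligases, the myogenic factor MYOD1, which FBXO32 marks for degradation, gave -0.54 ± 0.17 (SE, 1.46-fold higher in high_RFI, limma adjusted p = 0.474). The 7 ubiquitin genes and their activating or conjugating enzymes had a median of 0.041, with UBE2D1 at 0.15 ± 0.16 (SE).

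The autophagy genes beside BECN1 showed no call either. Of 9 genes of the initiation and beclin complexes, 6 were higher in low_RFI (median 0.031); PIK3C3, the kinase that BECN1 binds, gave -0.12 ± 0.084 (SE) and ULK1, the kinase that starts autophagy, -0.17 ± 0.12 (SE). Of 12 receptors and lysosomal genes, 10 were higher in high_RFI (median -0.047, beside 0.014 over all genes), with the protease CTSD at -0.20 ± 0.10 (SE, limma adjusted p = 0.753). Only 2 of 15 genes of autophagosome conjugation were measured, ATG5 at 0.065 ± 0.083 (SE) and ATG4D at -0.0099 ± 0.12 (SE). Between runs, 2 of the 77 passed: the glucocorticoid receptor NR3C1 (-0.34, limma adjusted p = 0.0434) and UBE2J1, a ubiquitin-conjugating enzyme of the endoplasmic reticulum (-0.46, adjusted p = 0.0469), both lower in the second run, where 3.59% of all genes passed and 1.4% in that direction.

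Last, for each gene the 3 genes whose levels followed it most closely were found among 4590 genes with a value in every pig, by Pearson r over the 15 pigs, which share line, run and slide. FBXO32 was followed by the deubiquitinase UCHL1 (0.88), KMO (0.87) and GALM (0.86). TRIM13 was followed by RND3 (0.89), C4H8orf37 (0.86) and SSFA2 (0.85). FOXO1 was followed by LYSMD2 (0.91), CDKN1B (0.81) and MSTN (0.79), which encodes myostatin, a restrainer of muscle growth. FOXO3 was followed by HOXD1 (0.88), EIF3A (0.84) and TTC13 (0.84). BECN1 was followed by ABCD4 (0.82), the lysosomal protease CTSA (0.80) and MTERF3 (0.77), the last being the gene that passed between lines. NEDD4 was followed by AP4S1 (0.77), TNMD (0.74) and CUX2 (0.74), but these 3 followed it in the first run (0.82, 0.86 and 0.87) and not in the second (0.13, -0.081 and -0.18). Other matches were also lower in the second run. FOXO3, which differed between runs, gave 0.83 and 0.50 with HOXD1 and 0.81 and 0.39 with EIF3A. FOXO1 gave 0.87 and 0.44 with MSTN, and BECN1 gave 0.90 and 0.55 with MTERF3. The remaining matches were at 0.59 or more within each run.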

How the data were processed

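Scanner files gave processed intensity per spot, which the authors deposited without normalization between arrays; per the file headers it comes from Feature Extraction 10.7.3.1, after background subtraction. The log2 values that the authors deposited in a matrix (R 2.10.0 per the submitters' processing notes) equal log2 of that signal minus each array's median over its 29364 spots, within 4.93e-08, and served as an alternative. Spot flags used here are a deposited column too. Control and non-uniform spots were left out, spots of a probe averaged, and levels scaled to the 75th percentile. Probes well above background on 7 or more arrays, with at least 4 values per line, were tested: 31984 of 43603. Among the tested probes assigned a gene's symbol, the one of highest mean level stood for the gene, for 4655 genes. For NEDD4 and FOXO3 the probe assigned only by description had the higher signal but could not be chosen.

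Lines were compared with limma 3.58.1 (lmFit, eBayes; R 4.3.3, statmod 1.5.0, version 1.17.8 of the data.table package), two-sided, with Benjamini-Hochberg adjustment over all genes or all probes. Correlations used 100000 permutations. The fit was tested on simulated data. The members and lists were chosen with earlier results of these data known, in which TRIM13, NEDD4 and BECN1 already appeared, so their differences are no independent support. The text names all members with their probes, list genes at an unadjusted p under 0.05 (otherwise the smallest p), and the 3 most similar genes; AKT1, PIK3C3, ULK1, ATG4D, PDK4, TXNIP and the list genes that passed between runs or in correlations were named after their values were seen. Number of pigs limits precision: the median standard error of a line difference was 0.13. No spot was saturated.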

Additional observations from a re-analysis of the deposited data

Results flagged for a closer look

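In FOXO1, high_RFI replicate 3 stood at a level of 3.104 (log2), while the next highest of the 8 high_RFI pigs was at 2.70, a gap of 0.6 of the range of that line. Of 12 sets of pigs looked at (6 genes in 2 lines), this was the 1 with a pig so far from its line. Chance gives such a pig in about 1 of 20 sets. The gap was that of the probe representing FOXO1. In A_72_P280234 the pig was highest at 0.12, beside -0.0041 for the next. In A_72_P452642 it stood at -0.24 in a line from -0.52 to -0.010, and in A_72_P514181 at -3.09 in a line from -3.92 to -2.89.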

How the results depend on the processing

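None of the 6 genes passed between lines under any of 14 other settings or without any 1 of the 15 pigs, and all kept their direction. Over all genes, where 1 passed, limma called 0 with normexp, median scaling, the deposited values, no filter on dim probes, slide, run or a replicate block as fixed terms, and 2 with quantile normalization, array weights or the mean of a gene's probes; leaving out 1 pig gave 0 to 3. The probe count, 0, was 1 with no filter on dim probes and 0 to 2 without 1 pig. Between runs, 167 genes became 299 with slide as a block and 70 with normexp, or 77 to 227 without 1 pig. The cause of these shifts was not tested. TRIM13 ranged from 0.11 (normexp) to 0.55, and from 0.45 to 0.61 without 1 pig; NEDD4 from 0.11 (normexp) to 0.52. FBXO32 against FOXO1 turned from r = -0.27 to 0.034 with run means removed. Replicate numbers shared by the lines did not pair the pigs: deviations of same-numbered pigs correlated at -0.040 to 0.31, and 1 of 7 low_RFI pigs correlated best with its own number. With the replicate block TRIM13 gave 0.55 (limma adjusted p = 0.348), BECN1 -0.27 and NEDD4 0.37, and no call changed for the 6 genes. The signals of TRIM13 and NEDD4 were low, and both shrank with normexp. The added correlations with FOXO-induced genes and marker sums, and the runs without 1 pig, were chosen after seeing the data.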
